A study of Mus musculus with 19 samples.

Results

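Retinoid metabolism in the liver was examined through 9 genes, Rbp4, Lrat, Rdh16, Dhrs3, Aldh1a1, Aldh1a7, Aldh1a2, Cyp26a1 and Cyp26b1, of the 55836 genes listed in the count table. They were selected by symbol for their roles in retinol transport, storage and oxidation and in retinoic acid breakdown. Cyp26b1 entered because the study had named it among the genes raised by polyethylene in mice on the control diet. The study listed it as altered by polyethylene on that diet and not on its other diet. Its values in every contrast are therefore given as a description with no test. The other 8 were grouped around it by function with earlier results of these data known. After the filter on low counts 13597 genes were tested, and 8 of the 9 were among them, Aldh1a2 being too low.

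The libraries come from 19 livers of wild-type (WT) male C57BL/6 mice, 8 weeks old at the start, 1 library per mouse, with no genetic change in any group. Mice ate a control diet (CD) or a diet rich in fat, fructose and cholesterol that induces steatohepatitis (MD) for 8 weeks. Each was gavaged with vehicle (Veh, a dilute Tween 20 solution) or with polyethylene particles (PE, 2 mg per mouse and day) in it. There were 4 mice in CD + Veh and 5 in each of MD + Veh, CD + PE and MD + PE. Because mice of a group were housed together, cage and group cannot be told apart. Counts per library ran from 13940970 to 15456729 in CD + Veh, from 13406037 to 15417813 in MD + Veh, from 10398820 to 12654401 in CD + PE and from 11163063 to 12757617 in MD + PE. Every PE library was shallower than every vehicle library of its diet (exact permutation test, two-sided, p = 0.00794 in each diet, the smallest p these group sizes allow). Levels are given as CPM, counts relative to library size, scaled by TMM, a normalization that sets aside extreme genes.

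Vitamin A reaches the liver as retinyl esters, is stored as esters in hepatic stellate cells and leaves the liver as retinol bound to the plasma carrier Rbp4. Retinol is oxidized reversibly to retinal and then irreversibly to retinoic acid, which binds nuclear receptors (Rar, paired with Rxr) at response elements made of repeated half-sites. The Cyp26 enzymes hydroxylate retinoic acid and end its action, and Cyp26a1 is a classical target that retinoic acid itself turns on. Stellate cells make up a minority of liver cells, while hepatocytes make Rbp4 and most of the dehydrogenases.

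The upstream sequences of the Cyp26 genes are shown because the start of Cyp26a1 is known for a retinoic acid response element, with Cyp26b1 beside it for comparison. Both are the 120 bases before the start of the canonical GENCODE vM39 transcript on GRCm39, written 5′ to 3′ on the strand of the gene. For Cyp26a1 this is chr19:37686121-37686240 on the plus strand, and for Cyp26b1 chr6:84565966-84566085 on the minus strand. The Cyp26b1 stretch lies inside the annotated span of that gene, chr6:84548396-84570890, which reaches upstream of the canonical start. Sequence at the outer end of that span was not searched. Capitals mark 2 half-sites that read AGTTCA on the other strand.
Cyp26a1: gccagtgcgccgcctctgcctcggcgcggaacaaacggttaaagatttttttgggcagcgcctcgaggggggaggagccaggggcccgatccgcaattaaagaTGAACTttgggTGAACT
Cyp26b1: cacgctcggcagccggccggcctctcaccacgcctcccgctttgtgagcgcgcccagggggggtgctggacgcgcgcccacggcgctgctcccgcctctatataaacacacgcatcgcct

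The search covered 250 bases before to 50 bases after each start, on both strands, for pairs of half-sites in the same direction, 5 bases apart (DR5), 2 apart (DR2) or 1 apart (DR1). A half-site was AGGTCA or one of its common variants, the form AGTTCA found in Cyp26a1, the related form GGGTCA, or finally the related form GGTTCA. Because the variants include the form known from Cyp26a1, its match is a description and no result of the search. In Cyp26a1 a DR5 ran from base -17 to base -1, counted from the start site, with its half-sites on the strand opposite to the gene. None of the other 8 windows held any of the 3 repeats, which says only that these letters are not in these windows. A DR5 was present in 12 of 21770 promoters of protein-coding genes (0.0551%), a DR2 in 24 (0.11%) and a DR1 in 49 (0.225%).

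Aldh1a1 and Aldh1a7 lie side by side on chromosome 19 and are close copies, which bears on how reads were divided between them. The first 90 coding bases of their canonical transcripts are shown, with capitals at the 5 positions where they differ.
Aldh1a1: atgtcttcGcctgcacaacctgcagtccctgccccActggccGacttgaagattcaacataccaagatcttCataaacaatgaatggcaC
Aldh1a7: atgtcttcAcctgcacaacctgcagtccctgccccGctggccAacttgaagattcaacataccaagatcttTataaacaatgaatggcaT

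Over the 1503 coding bases, 126 differed (identity 91.6%). Aldh1a1 occupies chr19:20469539-20622825 on the plus strand and Aldh1a7 chr19:20667107-20704932 on the minus strand, each with 13 exons. Of all stretches of 31 bases in their annotated transcripts, 281 were shared, 2.54% of those of Aldh1a1 and 5.36% of those of Aldh1a7, so the counts of both rest in small part on how Salmon split shared reads. Rdh16 shared 609 stretches with Rdh9 (9.14% of those of Rdh16), 96 with Rdh7 and 81 with Rdh16f2, and its counts are uncertain to that extent. Cyp26a1 and Cyp26b1 shared 0, as did Aldh1a1 and Aldh1a2.

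Hepatocyte markers were high in all 19 libraries, with a summed level of 45100 to 86640 CPM over 8 genes, none at 0 and Alb the most abundant. Alb itself was lower on MD, by 0.48 on the log2 scale in MD + Veh against CD + Veh (SE 0.15, adjusted p = 0.0324, edgeR's quasi-likelihood test with Benjamini-Hochberg adjustment over all genes tested, which also gives every adjusted p that follows). Marker genes of other cell types set some libraries apart. Skeletal muscle genes summed to 3008 CPM in MD + Veh replicate 1, with Acta1 at 775.1 CPM, to 389.8 CPM in CD + PE replicate 1, and to 189.3 CPM in MD + Veh replicate 2 and 129.8 CPM in replicate 3, against at most 35.45 CPM elsewhere. Intestinal genes summed to 245.9 CPM in MD + PE replicate 2, where none of the 8 was at 0, and to at most 130.9 CPM elsewhere, and Fabp2, which liver also expresses, was the most abundant of them in each library (42.6 to 121.2 CPM). Kupffer cell genes summed to 614.5 CPM in CD + PE replicate 2 and to at most 262.9 CPM elsewhere. Cholangiocyte (bile duct) genes summed to 141.4 CPM in MD + PE replicate 2, to 105.7 CPM in MD + PE replicate 4 and to at most 55.85 CPM elsewhere. These high sums rest on different genes of the list. Spp1, its most abundant gene by mean, was at only 26.11 CPM in MD + PE replicate 2, the library with high intestinal genes. In MD + PE replicate 4 Spp1 made up most of the sum, with 85.28 CPM. Vehicle libraries carry the numbers 39 to 47 and PE libraries the numbers 48 to 57, so the gavage and the order of the libraries cannot be told apart. A further division falls between libraries 45 and 46, within MD + Veh: the pseudogene Rps6-ps4 had 1088 to 1690 counts in libraries 39 to 45 and 0 in libraries 46 to 57.

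Per kilobase of canonical transcript, the 9 genes stood at very different levels. In CD + Veh the mean was 2592 CPM per kilobase for Rbp4, 72.91 for Aldh1a1, 43.11 for Rdh16, 42.02 for Dhrs3, 33.76 for Aldh1a7, 2.967 for Cyp26a1, 1.963 for Lrat, 0.2009 for Cyp26b1 and 0.08799 for Aldh1a2. In MD + PE Aldh1a1 stood at 180.7 and Cyp26b1 at 1.604 CPM per kilobase. The plot of all 9 genes by library shows which of them moved between groups and which scattered within them.

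**Figure D1:**
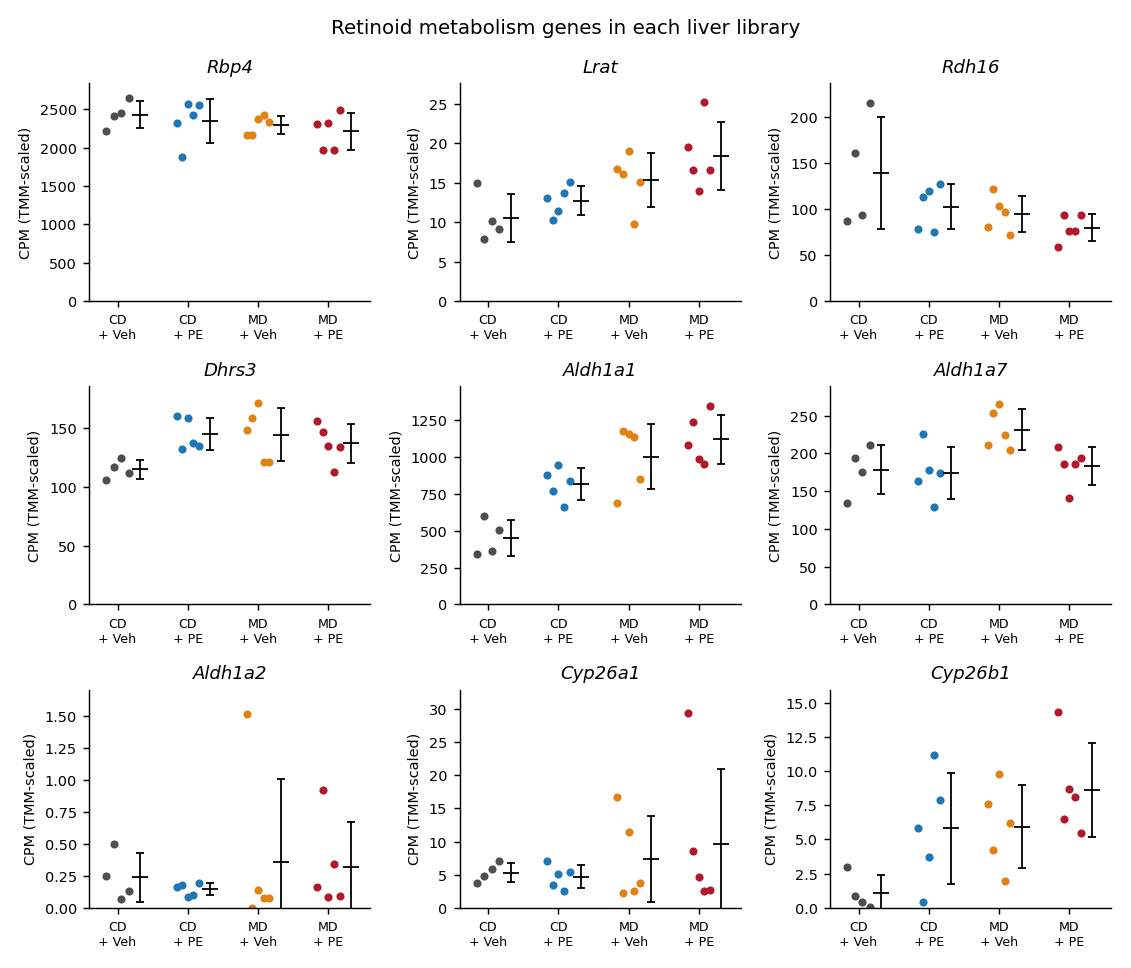
CPM of the 9 retinoid genes (vertical axes, TMM-scaled, each from 0) in the 19 liver libraries, by group on the horizontal axis. Points are libraries in replicate order and the cross with bars is the mean ± SD, cut at 0; Aldh1a1 and Cyp26b1 were lowest in CD + Veh, Rbp4 was level, and single libraries stood far above the others for Cyp26a1 (29.5 CPM) and Aldh1a2 (1.521 CPM).

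Rbp4, the plasma carrier of retinol, was level across the 4 groups. It was at 2215, 2408, 2453 and 2640 CPM in CD + Veh and at 2325, 1873, 2564, 2421 and 2548 CPM in CD + PE. In MD + Veh it was at 2163, 2167, 2373, 2428 and 2339 CPM, and in MD + PE at 2310, 1965, 2322, 1962 and 2487 CPM. All groups overlapped. The log2 fold changes lay between -0.09 and -0.05 in the 4 contrasts, with adjusted p from 0.626 to 0.860, and the 95% interval of the PE effect was -0.26 to 0.16 on CD and -0.25 to 0.14 on MD. Rbp4 lies at chr19:38105066-38113754 on the minus strand.

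Lrat, the acyltransferase that esterifies retinol for storage and a gene of stellate cells in liver, had its lowest mean in CD + Veh and its highest in MD + PE. It was at 14.93, 7.879, 10.13 and 9.16 CPM in CD + Veh and at 13.12, 10.35, 11.48, 13.66 and 15.12 CPM in CD + PE. In MD + Veh it was at 16.73, 16.11, 19.02, 9.752 and 15.14 CPM and in MD + PE at 19.58, 16.59, 14, 25.2 and 16.61 CPM. MD libraries mostly lay above the CD libraries of the same gavage, with an overlap in both cases. The log2 fold change of MD was 0.54 with vehicle (SE 0.20, 95% interval 0.12 to 0.97, adjusted p = 0.0794) and 0.53 with PE (SE 0.19, 0.14 to 0.93, adjusted p = 0.0997), neither past the threshold. Without CD + Veh replicate 1, the highest of its group, the first was 0.77 (adjusted p = 0.0198), and without MD + Veh replicate 4, the lowest of its group, 0.67 (adjusted p = 0.0254). With the division of library numbers described above as a covariate it was 0.71 (adjusted p = 0.0302), and without MD + Veh replicate 1, the library with high muscle genes, 0.53 (adjusted p = 0.121). The log2 fold change of Lrat with PE was 0.27 on CD (adjusted p = 0.548) and 0.26 on MD (adjusted p = 0.544). With that covariate these were 0.74 (adjusted p = 0.373) and 0.57 (adjusted p = 0.491). The change on CD was 0.50 without CD + Veh replicate 1 (adjusted p = 0.235) and 0.16 without CD + Veh replicate 2 (adjusted p = 0.802). That on MD was 0.14 without MD + Veh replicate 4 (adjusted p = 0.756) and 0.13 without MD + PE replicate 4 (adjusted p = 0.809). None of these was called. Lrat lies at chr3:82799886-82811288 on the minus strand.

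In bulk liver, more cells of a type and more RNA per cell cannot be told apart, so 13 stellate cell markers are given beside Lrat. All 13 passed the filter and none was at 0 in any library, and Dcn was the most abundant. Their summed level was 331.4, 312.7, 271.8 and 338.3 CPM in CD + Veh, 385.4, 331.2, 315.6, 327.5 and 359.9 CPM in CD + PE, 525.4, 406.8, 356.4, 329.5 and 344.6 CPM in MD + Veh, and 359.6, 378.4, 249.9, 448.3 and 387.6 CPM in MD + PE. The highest 2 sums, in MD + Veh replicate 1 and MD + PE replicate 4, were also the highest of the 6 activated stellate cell genes, 218.5 and 236.6 CPM, and the second of these libraries had the highest Lrat. In MD + Veh against CD + Veh 1 of the 13 was called higher, Colec11 (0.55, SE 0.14, adjusted p = 0.0144), beside 4.74% of all genes, and of the log2 fold changes of all 13 markers 3 were negative. Their median was 0.296, beside -0.004 for all genes. By edgeR 4 of the 13 had an unadjusted p below 0.05, and DESeq2 called Colec11 and Ngfr. In MD + PE against CD + PE 1 of the 13 was called higher, Reln (0.53, SE 0.15, adjusted p = 0.0406), beside 1.69% of all genes, and 5 were negative. The median there was 0.101, beside -0.019 for all genes, with 2 of the 13 at an unadjusted p below 0.05 by edgeR. DESeq2 called Reln alone. Of the 6 activated stellate cell genes 5 passed the filter, and edgeR called none of them in the diet contrasts. In MD + Veh against CD + Veh their median log2 fold change was 0.881, with 4 of 5 positive and 2 at an unadjusted p below 0.05, and DESeq2 called none. With MD and PE, against CD + PE, the median was 1.052, with all 5 positive and 4 at an unadjusted p below 0.05, and DESeq2 called Lox. The part of stellate cell number in the values of Lrat was not tested.

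The retinol dehydrogenase Rdh16, which oxidizes retinol to retinal, varied most between mice on the control diet with vehicle. It was at 86.88, 161.2, 93.34 and 215.5 CPM in CD + Veh, at 78.12, 113.2, 119.1, 74.71 and 127.2 CPM in CD + PE, at 80.24, 122, 103.2, 97.13 and 71.38 CPM in MD + Veh, and at 58.83, 93.81, 76.32, 76.63 and 93.93 CPM in MD + PE. Only replicates 2 and 4 of CD + Veh lay above all other libraries. The log2 fold change was -0.44 for PE on CD (SE 0.24, adjusted p = 0.362), -0.25 for PE on MD (SE 0.23, adjusted p = 0.660) and -0.55 for MD + Veh against CD + Veh (SE 0.24, adjusted p = 0.131), none of them called. With the division of library numbers as a covariate the first was -0.17 (adjusted p = 0.905). Without CD + Veh replicate 4, the highest library, the change with PE on CD was -0.14 (adjusted p = 0.854) and that of MD + Veh against CD + Veh -0.25 (adjusted p = 0.537), and without MD + Veh replicate 2 or MD + PE replicate 1 that with PE on MD was -0.14 (adjusted p = 0.863) or -0.15 (adjusted p = 0.803). Rdh16 lies at chr10:127637001-127682434 on the plus strand.

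Dhrs3, which reduces retinal back to retinol, varied least between mice in CD + Veh. It was at 106.1, 117.3, 124.7 and 112.1 CPM in CD + Veh and at 160.6, 132.4, 158.5, 137.7 and 134.4 CPM in CD + PE. MD + Veh gave 148.7, 158.6, 171.7, 121.3 and 121.5 CPM and MD + PE 156.3, 147.1, 135, 112.3 and 134.2 CPM. In MD + Veh the lowest were replicates 4 and 5, which lie past the division of library numbers. Every CD + PE library lay above every CD + Veh library, yet the change of 0.33 (SE 0.11, 95% interval 0.10 to 0.56) missed the threshold (adjusted p = 0.101). With the division of library numbers as a covariate this change was 0.73 (adjusted p = 0.0517). MD + Veh differed from CD + Veh by 0.33 too (SE 0.11, adjusted p = 0.0520), and this passed without MD + Veh replicate 4 (0.38, adjusted p = 0.0276), without replicate 5 (0.39, adjusted p = 0.0203), and with the division of library numbers as a covariate (0.47, adjusted p = 0.00427). Without MD + Veh replicate 1 it was 0.33 (adjusted p = 0.0742). On MD, PE gave -0.08 (SE 0.10, adjusted p = 0.787), and 0.17 with the division as a covariate (adjusted p = 0.690). Dhrs3 lies at chr4:144619245-144654779 on the plus strand.

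Aldh1a1, the cytosolic retinal dehydrogenase that forms retinoic acid, was the member with the clearest difference from CD + Veh. It was at 342, 597.3, 364 and 505.6 CPM in CD + Veh (452.2 ± 120.8, SD, n = 4) and at 878.6, 772.6, 947.6, 662.4 and 840.2 CPM in CD + PE (820.3 ± 108.6, n = 5). MD + Veh held 689.1, 1178, 1156, 1135 and 853.6 CPM (1002 ± 219.1, n = 5) and MD + PE 1081, 1236, 989.9, 954.8 and 1345 CPM (1121 ± 165.6, n = 5). Each of the other groups lay wholly above CD + Veh, and MD + Veh and MD + PE overlapped. In CD + PE Aldh1a1 was at 1.81 times its CD + Veh level (log2 0.86, SE 0.18, 95% interval 0.48 to 1.24, adjusted p = 0.0110). In MD + Veh it was at 2.22 times that level (log2 1.15, SE 0.18, 0.77 to 1.53, adjusted p = 0.000327). These contrasts share the CD + Veh libraries. On MD, the change with PE was 0.16 (SE 0.17, -0.19 to 0.51, adjusted p = 0.700), and the interaction of PE and diet was -0.70 (SE 0.24, adjusted p = 0.390), so that the change with PE is not shown to differ between the diets.

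The MD call of Aldh1a1 held under all 30 alternatives, with log2 fold changes from 1.05 to 1.31. The PE call on CD held under 29 of them, each of the 19 libraries left out in turn included, and was lost with the division of library numbers as a covariate, where the change was 0.88 but the adjusted p 0.250. In that fit the PE effect on CD rests on the difference between libraries on both sides of the division within MD + Veh, and 37 genes of all were called, against 397 without it.

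Markers of pericentral hepatocytes, the zone around the central vein, are given beside Aldh1a1. All 11 passed the filter, and their summed level, mostly Cyp2e1, was 5863, 8099, 5673 and 7558 CPM in CD + Veh, 10060, 7212, 10290, 9443 and 8728 CPM in CD + PE, 8399, 9670, 9444, 9936 and 9529 CPM in MD + Veh, and 10020, 10990, 11860, 9081 and 13100 CPM in MD + PE. With PE on CD, 3 of the 11 were called higher, beside 1.22% of all genes. Oat rose (0.99, SE 0.19, adjusted p = 0.00714), as did Lgr5 (0.77, SE 0.17, adjusted p = 0.0166) and Lect2 (0.44, SE 0.12, adjusted p = 0.0426), while Glul did not pass the test (-0.16, SE 0.10, adjusted p = 0.413). In MD + Veh against CD + Veh 4 of the 11 were called higher, Cyp2e1, Lect2, Oat and Rhbg, beside 4.74% of all genes. In MD + PE against CD + PE, where the Aldh1a1 groups did not overlap either, neither edgeR nor DESeq2 called any of the 11, 1 had an unadjusted p below 0.05, and their median log2 fold change was 0.047. Of the 9 periportal markers, 2 fell in CD + PE against CD + Veh, Ass1 (-0.56, SE 0.13, adjusted p = 0.0191) and Gls2 (-0.42, SE 0.12, adjusted p = 0.0496), beside 1.7% of all genes. In MD + Veh against CD + Veh 6 of the 9 fell, beside 5.63% of all genes, and in MD + PE against CD + PE 4 fell, beside 2.92%. In MD + PE against MD + Veh, where the change of Aldh1a1 was not called, 2 of the 9 fell, Ass1 and Gls2 again, beside 0.934% of all genes, and neither edgeR nor DESeq2 called any of the 11 pericentral markers, 2 of which had an unadjusted p below 0.05. The part of zonation in the values of Aldh1a1 was not tested.

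Its neighbour Aldh1a7, an aldehyde dehydrogenase of the same family, did not share this pattern. It was at 134.1, 193.5, 175.2 and 210.5 CPM in CD + Veh, at 163.2, 225.1, 178.1, 129.2 and 174.3 CPM in CD + PE, at 210.4, 252.7, 265.3, 224.2 and 204.5 CPM in MD + Veh, and at 208.6, 185.4, 141.3, 186.1 and 194.0 CPM in MD + PE. MD + Veh was the highest group, and it overlapped CD + Veh and MD + PE. The changes were -0.04 for PE on CD (95% interval -0.34 to 0.27, adjusted p = 0.947, or 0.14 with the division of library numbers as a covariate, adjusted p = 0.856), -0.34 for PE on MD (-0.63 to -0.05, adjusted p = 0.235) and 0.38 for MD + Veh against CD + Veh (0.07 to 0.68, adjusted p = 0.0964). The ratio of Aldh1a1 to Aldh1a7 counts, not corrected for length, was 2.08 to 3.09 in CD + Veh, 3.43 to 5.38 in CD + PE, 3.28 to 5.06 in MD + Veh and 5.13 to 7 in MD + PE. Every library of the 3 other groups thus had a higher ratio than every CD + Veh library, a description of 2 genes chosen with results known and resting on the split of shared reads.

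Aldh1a2, the retinal dehydrogenase of embryonic and mesenchymal tissues, was close to absent. MD + Veh replicate 1 held 24 counts (1.521 CPM) and MD + PE replicate 2 held 11 (0.9263 CPM), and every other library held 0 to 7 counts. These are the libraries with the highest sums of muscle and of intestinal genes. No test was made, since the gene did not pass the filter. Aldh1a2 lies at chr9:71122630-71203527 on the plus strand.

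Cyp26a1, the main retinoic acid hydroxylase of hepatocytes and the gene with the DR5 printed above, varied as widely within groups as between them. It was at 3.669, 4.799, 5.838 and 7.005 CPM in CD + Veh (5.328 ± 1.426, SD, n = 4) and at 7.057, 3.421, 5.032, 2.511 and 5.434 CPM in CD + PE (4.691 ± 1.777, n = 5). In MD + Veh it was at 16.8, 2.292, 11.39, 2.477 and 3.785 CPM (7.347 ± 6.472, n = 5), and in MD + PE at 29.5, 8.505, 4.694, 2.472 and 2.694 CPM (9.572 ± 11.4, n = 5). The spread was wide on MD, where single mice were high, and all groups overlapped. No contrast was called: -0.18 for PE on CD (SE 0.68, adjusted p = 0.942), 0.37 for PE on MD (SE 0.61, adjusted p = 0.833), 0.47 for MD + Veh against CD + Veh (SE 0.66, adjusted p = 0.686) and 1.02 for MD + PE against CD + PE (SE 0.64, adjusted p = 0.375). The 95% interval of the last, -0.31 to 2.36, is wide enough to hold no change and a large rise. Without MD + PE replicate 1 the change with PE on MD was -0.69 (adjusted p = 0.555) and that of MD + PE against CD + PE -0.04 (adjusted p = 0.979). Without MD + Veh replicate 1 the change with PE on MD was 0.94 (adjusted p = 0.554) and that of MD + Veh against CD + Veh -0.07 (adjusted p = 0.960). With the division of library numbers as a covariate PE gave 1.52 on CD (adjusted p = 0.634) and 1.61 on MD (adjusted p = 0.612). Cyp26a1 lies at chr19:37686241-37689984 on the plus strand, with 7 exons.

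Cyp26b1, another retinoic acid hydroxylase, had its lowest levels in CD + Veh. It was at 2.985, 0.8595, 0.4026 and 0.06735 CPM in CD + Veh, which are 48, 12, 6 and 1 counts (1.079 ± 1.312 CPM, SD, n = 4). CD + PE held 5.812, 0.4386, 3.708, 11.15 and 7.904 CPM (5.802 ± 4.066, n = 5), with replicate 2 at 5 counts. MD + Veh held 7.606, 4.212, 9.751, 1.935 and 6.18 CPM (5.937 ± 3.016, n = 5) and MD + PE 14.3, 6.484, 8.693, 8.102 and 5.477 CPM (8.612 ± 3.427, n = 5). The means rose from CD + Veh through CD + PE and then MD + Veh up to MD + PE, an order in which the neighbours CD + PE and MD + Veh differed by far less than 1 SD and MD + Veh and MD + PE overlapped. The MD + PE libraries all lay above all CD + Veh libraries. This is a description only, since the gene was chosen on a contrast in which these CD + Veh libraries were low. Cyp26b1 lies at chr6:84548396-84570890 on the minus strand, with 6 exons.

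For PE on CD, the contrast for which Cyp26b1 was named, the log2 fold change was 2.38 (SE 0.73, 5.22-fold), with the groups overlapping through CD + PE replicate 2. Over the 30 alternatives it ran from 2.01 to 3.70, the highest without CD + Veh replicate 1, and it was 3.20 with the division of library numbers as a covariate and 2.68 without CD + PE replicate 2, the library with high Kupffer cell genes. MD + Veh against CD + Veh gave 2.43 (SE 0.73, 5.38-fold). It uses the same 4 CD + Veh libraries and is not independent of the choice of the gene, so it is given with no test. Over all alternatives this log2 fold change ran from 2.06 to 3.75, the highest without CD + Veh replicate 1. PE on MD gave 0.53 (SE 0.59). It shares no library with PE on CD, but the study listed the gene as altered by PE on CD and not on MD. That contrast is therefore given with no test either. The change with PE on MD was 1.08 with the division of library numbers as a covariate. It was 0.31 without MD + Veh replicate 4 and 0.27 without MD + PE replicate 1. MD + PE against CD + PE gave 0.58 (SE 0.60), also with no test, because it uses the CD + PE libraries in which the gene was chosen for being high. That value was 0.28 without CD + PE replicate 2, 0.96 without CD + PE replicate 4 and 0.32 without MD + PE replicate 1. The interaction, -1.85 (SE 0.93), holds the contrast that chose the gene and is given with no test. Over the alternatives it ran from -3.15, without CD + Veh replicate 1, to -1.46.

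**Figure D2:**
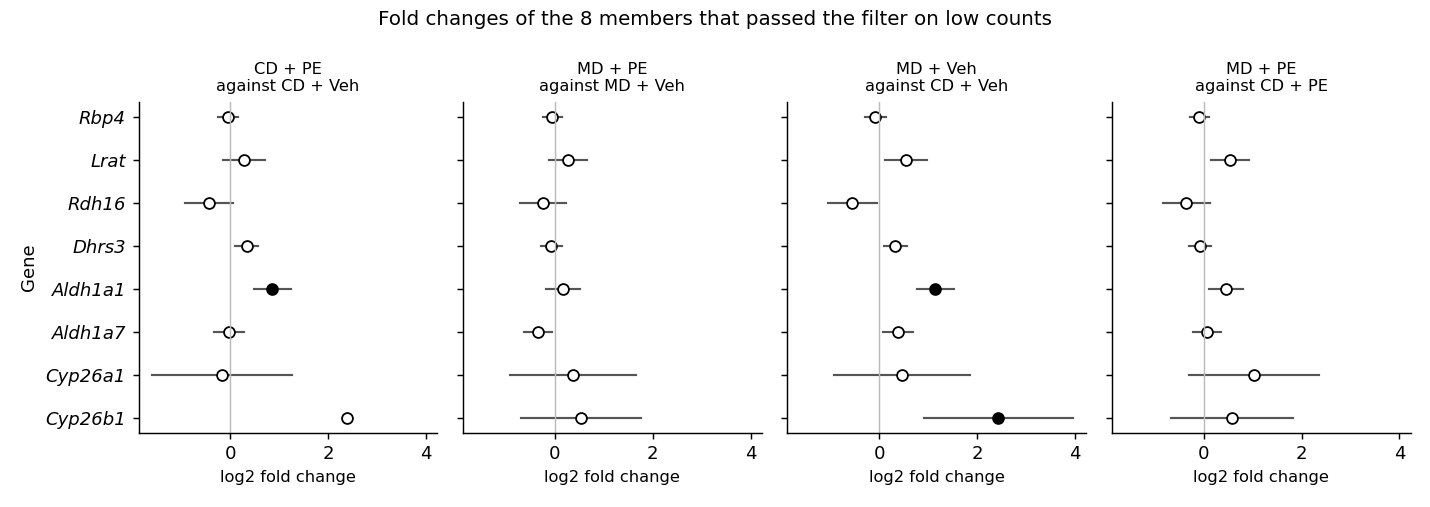
Log2 fold changes (horizontal axes) of the 8 members that passed the filter (vertical axis) in 4 contrasts, with bars for the 95% interval and filled points for genes called by edgeR. Aldh1a1 was called for PE on CD and for MD with vehicle. Cyp26b1 in CD + PE against CD + Veh (2.38) is drawn without a bar because it was chosen on that contrast. Its filled point for MD with vehicle reuses the CD + Veh libraries in which the gene was chosen for being low. That fill is not counted as a call. Its bars and points in the other contrasts are a description, since the choice of the gene bears on each of them.

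Counted over the set, 1 of 7 members tested was called in CD + PE against CD + Veh (Aldh1a1), where 2.92% of the 13597 genes were called, and Aldh1a1 and Dhrs3 did not overlap between the groups, as 7.83% of all genes did not. In MD + Veh against CD + Veh 1 of the 7 members other than Cyp26b1 was called (Aldh1a1), against 10.4% of all genes, and 1 of the 7 did not overlap, against 16.2%. Cyp26b1 is not counted in any contrast, because its choice bears on each of them. Neither of the contrasts free of CD + Veh called any of the 7 members other than Cyp26b1 by edgeR or by DESeq2. In MD + PE against MD + Veh, where 1.08% of all genes were called and 3.57% did not overlap, all 7 overlapped and 1 had an unadjusted p below 0.05 (Aldh1a7). In MD + PE against CD + PE, where the shares were 4.61% and 6.18%, Aldh1a1 alone did not overlap (0.45, SE 0.17, adjusted p = 0.114, or 0.0499 with only these groups in the fit) and 2 had an unadjusted p below 0.05 (Aldh1a1 and Lrat). For the interaction, where 0.00735% of all genes were called, edgeR called none of the 7 members other than Cyp26b1, DESeq2 none either, and 2 of them had an unadjusted p below 0.05 (Aldh1a1 and Dhrs3). The median log2 fold change of the 7 members tested other than Cyp26b1 was -0.035 for PE on CD, -0.054 for PE on MD, 0.376 for MD + Veh against CD + Veh and 0.074 for MD + PE against CD + PE, beside 0.006, -0.012, -0.004 and -0.019 for all genes tested.

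Across the 19 libraries Cyp26b1 and Lrat ranked most alike of the 36 pairs of members, with a Spearman's rho of 0.739. Of all genes tested with a mean of at least 5 CPM, Lrat was also the gene most like Cyp26b1, followed by Cnnm2 (0.732) and ENSMUSG00000121607 (0.709). The points share the groups, the libraries and their depth, so the deviations from the group means were examined as well, on log2(CPM + 0.5). Within groups Pearson's r was 0.66 for Cyp26b1 and Lrat, 0.72 for Rdh16 and Aldh1a1, 0.63 for Cyp26a1 and Dhrs3, 0.62 for Rdh16 and Aldh1a7, and -0.60 for Cyp26b1 and Aldh1a7, the pairs past 0.6 in size. The same mice were therefore often high or low for Cyp26b1 and for Lrat inside a group, as the plot of gene pairs shows, while Cyp26b1 and Cyp26a1 had a rho of 0.198 over all libraries.

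**Figure D3:**
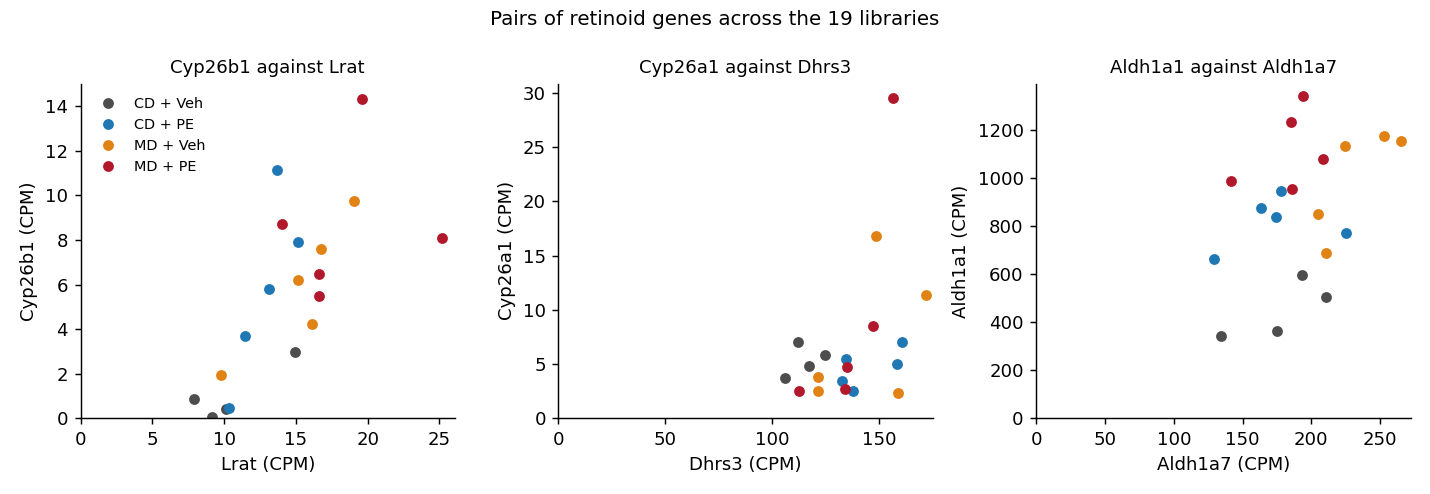
CPM of 3 pairs of retinoid genes over the 19 libraries, coloured by group, both axes from 0. Libraries with more Lrat had more Cyp26b1 (Spearman's rho 0.739), the 4 libraries with the most Cyp26a1 all had Dhrs3 at 147.1 CPM or more (0.396), and CD + Veh libraries lay lowest in Aldh1a1 at a given Aldh1a7 (0.358).

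The other members kept different company by the same measure, over the same 19 libraries. Aldh1a1 was most like Suclg2 (0.956), Cyp2c29 (0.94) and Vwa8 (0.935), Aldh1a7 like Rmdn3 (0.928), Slc11a1 (0.86) and Txn1 (0.86), and Rbp4 like Acp1 (0.891), Brap (0.891) and Ndufa4 (0.874). Dhrs3 was most like Ranbp10 (0.889), Gtf2ird1 (0.849) and Eps8l2 (0.826), and Lrat like 5033406O09Rik (0.86), Igfbp7 (0.828) and Cd81 (0.812). The nearest genes of Rdh16 were Sult1a1 (0.779), Med28 (0.772) and Pgrmc2 (0.758), and those of Cyp26a1 Ppp2r2a (0.721), Gse1 (0.684) and Prkab1 (0.684). None are given for Aldh1a2, whose counts are too low to rank the libraries.

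The rest of the pathway was covered by 50 further genes on 7 lists, 41 of which passed the filter. In CD + PE against CD + Veh 1 of them was called, lower, as 1.7% of all genes were, and in MD + PE against MD + Veh none was by edgeR, while 9 had an unadjusted p below 0.05 and DESeq2 called Rdh11. MD + Veh against CD + Veh called 3 higher and 2 lower, beside 4.74% and 5.63% of all genes. MD + PE against CD + PE called 1 higher and 4 lower, beside 1.69% and 2.92%, and the interaction none by edgeR or DESeq2, with 2 at an unadjusted p below 0.05. The median log2 fold changes of the 41, in this order 0.101, -0.068, -0.012, -0.03 and -0.087, stood beside 0.006, -0.012, -0.004, -0.019 and -0.018 for all genes. The changes with diet among them were thus in single genes, and those went both ways.

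Rdh11, a retinal reductase of the endoplasmic reticulum, was far lower on MD than on CD. It was at 99.69, 115.3, 74.69 and 156.9 CPM in CD + Veh, at 53.3, 79.9, 51.03, 54.63 and 61.55 CPM in CD + PE, at 18.38, 20.07, 15.82, 14.55 and 21.4 CPM in MD + Veh and at 9.995, 14.23, 12, 13.11 and 7.543 CPM in MD + PE. Each MD library lay far below each CD library. It was lower on MD by 2.63 with vehicle (SE 0.20, adjusted p = 1.55e-07) and by 2.40 with PE (SE 0.20, adjusted p = 2.46e-07) on the log2 scale. PE on CD gave -0.89 (SE 0.19, adjusted p = 0.0126), a call lost without CD + Veh replicate 4 (-0.67, adjusted p = 0.0743) and with the division of library numbers as a covariate (-0.88, adjusted p = 0.301), and PE on MD gave -0.66 (SE 0.20, adjusted p = 0.0926) with no overlap between the groups.

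Rdh16f2, a close relative of Rdh16, fell with MD as well, from 89.18 ± 9.075 CPM (SD, n = 4) in CD + Veh to 31.64 ± 5.592 CPM (n = 5) in MD + Veh (log2 -1.49, SE 0.17, adjusted p = 7.97e-06) and from 74.07 ± 11.49 CPM in CD + PE to 29.78 ± 7.816 CPM in MD + PE (log2 -1.32, SE 0.16, adjusted p = 2.91e-05). Dhrs4, another carbonyl and retinal reductase, rose with MD and vehicle (0.49, SE 0.08, adjusted p = 0.000288). In MD + PE against CD + PE its change was 0.29 (SE 0.07, adjusted p = 0.0189), with no overlap between the groups but under the minimum fold change. Rdh5, an 11-cis-retinol dehydrogenase, was lower in MD + PE than in CD + PE (-0.42, SE 0.12, adjusted p = 0.0362), a call lost with no filter on low counts (adjusted p = 0.0705), with libraries thinned to equal depth (adjusted p = 0.0928) and without any of CD + PE replicates 1, 4 and 5 or MD + PE replicates 1 to 4 (adjusted p from 0.0513 to 0.0997). The other 13 genes of this list that passed the filter were not called in any contrast by edgeR, and DESeq2 called Retsat among them for PE on CD.

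Of the genes for transport, Ttr, which carries Rbp4 in plasma, was lower in MD + PE than in CD + PE (3207 ± 300 against 4583 ± 443 CPM, n = 5 each, log2 -0.52, SE 0.09, adjusted p = 0.00191), and Rbp4 itself was not called (-0.09, SE 0.09, adjusted p = 0.643). In MD + Veh Ttr was at 3861 ± 299.8 CPM (n = 5) against 5002 ± 431.2 CPM in CD + Veh (n = 4), with no overlap, and this change of -0.37 (SE 0.10, adjusted p = 0.0158) was under the minimum fold change and past it without CD + Veh replicate 1 (-0.42), MD + Veh replicate 2 (-0.40) or MD + Veh replicate 3 (-0.40). Lpl, a lipase that acts on lipoproteins and on retinyl esters carried in them, rose with MD and vehicle from 14.92 ± 3.503 CPM (n = 4) to 79.76 ± 56.34 CPM (n = 5, log2 2.42, SE 0.41, adjusted p = 0.000546), with MD + Veh replicate 1, the library with high muscle genes, at 177.6 CPM and the others of its group between 38.7 and 69.28 CPM. Without that library the change was 1.91 (adjusted p = 0.000475). The same library had the highest sum of 5 adipocyte genes, 23.51 CPM, against at most 14.83 CPM elsewhere. The part of other cell types in its Lpl value was not tested. In MD + PE against CD + PE Lpl was at 45.23 ± 16.42 against 20.81 ± 8.632 CPM (n = 5 each), with no overlap (1.12, SE 0.37, adjusted p = 0.0721), not called but called under 7 of the 30 alternatives, among them DESeq2 (adjusted p = 0.0458), the replicate number as a block (adjusted p = 0.0496) and the fit without MD + Veh replicate 1 (adjusted p = 0.0165). Tgm2, a transglutaminase and a known target of retinoic acid, was higher on MD with vehicle (0.56, SE 0.12, adjusted p = 0.00344) and with PE (0.40, SE 0.11, adjusted p = 0.0371). The second of these calls was lost without any of CD + PE replicates 1, 3, 4 and 5 or MD + PE replicates 1, 4 and 5 (adjusted p from 0.0536 to 0.096). None of the 6 receptor genes was called in any contrast by edgeR or DESeq2, and 1 had an unadjusted p below 0.05, Rxra for PE on CD (-0.23, SE 0.09). Rxra was the most abundant of them with 76.96 CPM per kilobase in CD + Veh, ahead of Rxrb with 10.19 and Rara with 6.119. The plot of the called pathway genes by library shows the separation of the diets for Rdh11 and Rdh16f2 and the single high library for Lpl.

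**Figure D4:**
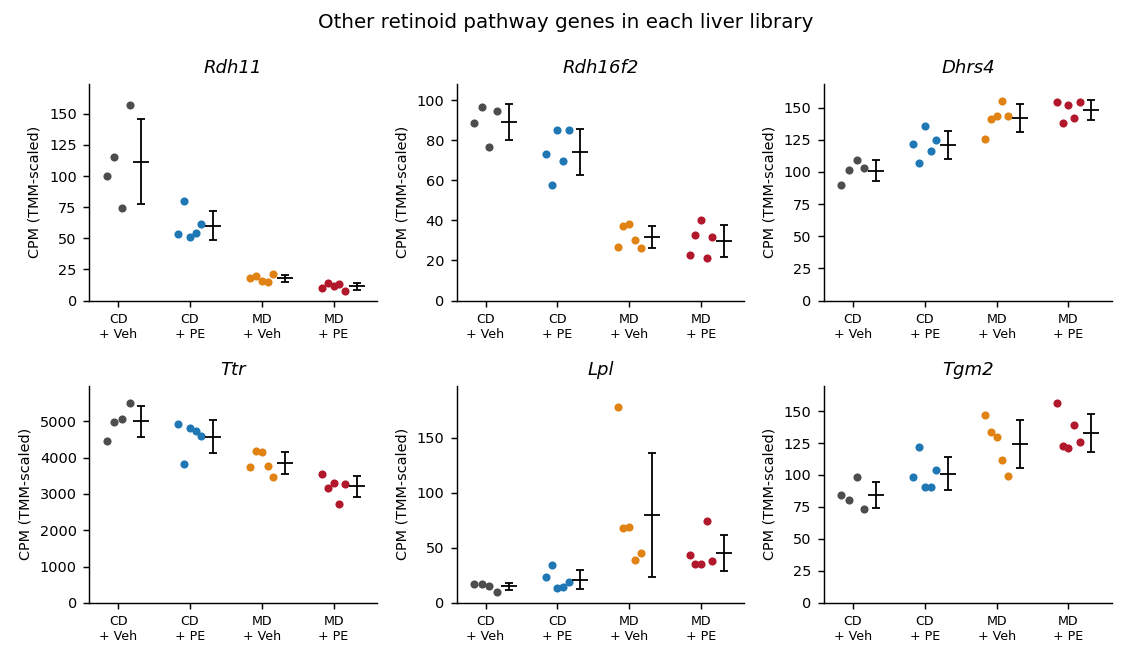
CPM (vertical axes, TMM-scaled, from 0) of 6 other retinoid pathway genes in the 19 libraries, by group on the horizontal axis, with the mean ± SD beside the points. Rdh11 and Rdh16f2 were lower in every MD library than in every CD library, Dhrs4 was higher in every MD + Veh library than in every CD + Veh library, and 1 library of MD + Veh stood at 177.6 CPM for Lpl.

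Among these lists 9 genes were too low to test, namely Rbp2, Rbp7, Stra6, Crabp1, Crabp2, Rdh1, Rdh12, Aldh1a3 and Cyp26c1. Rbp2, the retinol-binding protein of the small intestine, was at 17.35 CPM in MD + PE replicate 2, the library with high intestinal genes, and at 0 to 0.6085 CPM in all others. That library and MD + Veh replicate 1 were also left out together, a setting chosen after the data had been seen. This took the log2 fold change of Cyp26b1 in MD + Veh against CD + Veh to 2.34 and kept both calls of Aldh1a1.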

How the data were processed

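RNA-seq of 19 mouse livers, 1 poly(A) library per mouse, was analysed, and all other assays of the study were not used here. The authors trimmed reads with fastp 0.23.4, quantified them with Salmon 1.10.3 on a GENCODE transcriptome of GRCm39 and summed transcripts to genes. The deposited values are the authors' estimated counts, whole numbers without normalization or filter, and were used as deposited. Replicates are separate mice. Transcripts with shared sequence were split by Salmon, which bears on Aldh1a1, Aldh1a7 and Rdh16.

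All 19 libraries were fitted in R 4.3.3 with edgeR 4.0.16 (TMM, filterByExpr by group, 1 coefficient per group, quasi-likelihood F test). A call needed an adjusted p (Benjamini-Hochberg, over all 13597 genes tested) below 0.05 and a log2 change of 0.38 or more in size, as set in the study's methods. SE is the log2 fold change divided by the square root of F. Fold changes carry a prior count of 2. The 9 genes, the other lists and the markers were chosen with earlier results of these data known, and no test was made over a list. Named are all 9 genes, the genes called on each list, the markers that define a cell type, and the 3 genes most like each member except Aldh1a2, too low to rank, by Spearman's rho over the libraries. The alternatives were RLE normalization, DESeq2 1.42.0, no filter on low counts, a stricter one (a mean of 1 CPM, and 10 counts or more in each library of 1 group), a block for the replicate number, a covariate for the division of library numbers, robust dispersion, fits of the compared groups alone, no minimum fold change, thinning to equal depth and each library left out. The fits were tested on simulated data. At this depth 3 counts are 0.1858 to 0.3013 CPM, which covers counting error only. Positions and sequences are those of GENCODE vM39 on GRCm39, and the GENCODE release the authors used is not given in the sources used here.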

Additional observations from a re-analysis of the deposited data

Results flagged for a closer look

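Among the 36 sets of values examined (9 genes in 4 groups), 2 libraries stood far above the rest of their group by Dixon's criterion at 95%, a criterion that chance alone meets in about 1 of 20 groups. Cyp26a1 was at 29.5 CPM in MD + PE replicate 1, where the next library had 8.51 CPM and the gap was 0.777 of the range. The same library had the highest Cyp26b1 of all (14.3 CPM). Aldh1a2 was at 1.52 CPM in MD + Veh replicate 1, where the next library had 0.136 CPM and the gap was 0.91 of the range, and this is the library whose skeletal muscle genes summed to 3008 CPM. The part of muscle RNA in this value was not tested.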

How the results depend on the processing

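Of the 49 retinoid genes past the filter, members included, 2 were called for PE on CD, 0 for PE on MD and 7 for MD with vehicle. For MD with PE 5 were called, and for the interaction 0. Of all 13597 genes tested, 2.92%, 1.08%, 10.4%, 4.61% and 0.00735% were called in this order of contrasts. The counts under other settings are given here without such shares. The count for PE on CD leaves Cyp26b1 out (48 genes). The other counts include it, although its choice bears on them, and without it MD with vehicle gave 6. Under the settings below it stayed in the set as well. The counts given there for MD with vehicle can therefore hold Cyp26b1, whose call is no result. DESeq2 called 1 for PE on MD (Rdh11), and the library division as a covariate left 0 for PE on CD. With each library left out in turn the counts ran from 1 to 3, 0 to 1, 6 to 10, 3 to 8 and 0 to 0 in the same order. The 1 was reached without CD + Veh replicate 4 (Aldh1a1 only), the 10 without CD + Veh replicate 1, the 8 without CD + PE replicate 2, and the 3 without CD + PE replicate 4 or 5. The labels do not say whether the replicate numbers pair mice across groups. Over 27 pairs of libraries with the same number the residuals correlated with a median r of 0.0467, from -0.257 to 0.413, above 0.1 in 7. These pairs reuse the same 19 libraries, so the values cannot settle whether something is shared by number. With the replicate number as a block the counts were 2, 1 (Hsd17b6), 8, 6 and 0. Leaving out MD + Veh replicate 1 and MD + PE replicate 2 together, added after the data had been seen, gave 2, 0, 6, 5 and 0. All other settings kept each count within 1.5 times its value. Counts were lowest for Aldh1a2 and Cyp26b1 among the members, and 1 CPM stands for few reads. The intervals of Cyp26a1 and Cyp26b1 are the widest of the 8 genes past the filter, and the cause of their width was not tested.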

Other observations

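Retsat, which saturates all-trans-retinol, was at 127.2, 152.1, 181.8 and 209.6 CPM in CD + Veh and at 252.7, 172.4, 299.4, 232.9 and 336.6 CPM in CD + PE, with means of 218.4 CPM in MD + Veh and 327.5 CPM in MD + PE. The log2 fold change with PE was 0.63 on CD (SE 0.20, adjusted p = 0.0950) and 0.58 on MD (SE 0.19, adjusted p = 0.128), neither called by edgeR's quasi-likelihood test, and on CD it was called by DESeq2 and without CD + PE replicate 2. Hsd17b6, whose product acts on retinol and steroids, was at 50.77 to 85.31 CPM in MD + Veh and at 57.52 to 204 CPM in MD + PE (0.96, SE 0.31, adjusted p = 0.120). Adh5 had a change of -0.31 with PE on CD (SE 0.09, adjusted p = 0.0465) and of -0.37 with MD and vehicle (SE 0.09, adjusted p = 0.00627), both with no overlap between the groups and both under the minimum fold change. Adh1, the main alcohol dehydrogenase of liver, was lower in MD + PE than in CD + PE by 0.37 on the log2 scale (SE 0.08, adjusted p = 0.00547), also under that minimum. Retsat and Hsd17b6 were singled out after their values were seen.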
